A study of Rattus norvegicus with 14 samples.

Results

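The foreskin of unexposed newborn rats was described from the 7 samples of the series, of 14 in all, whose titles name corn oil. Corn oil was the vehicle. The samples were chosen by that label alone, and no measured value entered the choice. Pregnant Sprague Dawley rats were gavaged daily with corn oil from gestational day 16 to day 20, and the foreskin of their pups was collected on postnatal day 5. RNA of 2 foreskins of a litter was pooled for 1 Affymetrix Gene 1.0 ST array, so the litter was the replicate and differences between littermates cannot be seen. The other 7 samples came from litters of dams given flutamide, an antiandrogen, at 5 mg/kg/day, and were not analysed here.

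The foreskin, or prepuce, is a fold of skin over the glans of the penis. Its outer face is hair-bearing epidermis over a collagen-rich dermis, its inner face is a thinner stratified epithelium that in newborns is still joined to that of the glans, and rodents carry sebaceous preputial glands beside it. Basal keratinocytes divide on the basement membrane and, as they move up, exchange their keratins for those of the spinous layers before they cornify. In bulk tissue such as this, fewer cells of a type and less RNA per cell cannot be told apart.

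Levels are the deposited log2 values, in which a step of 1 is a doubling of array signal. For each of 14497 genes the probe set with the highest mean over these litters was used. The median gene had a mean level of 5.89 and levels ran from 1.34 to 12.34. Probe sets differ in how well they bind their target, so the order of genes given here is one of array brightness, and no gene's level was set against another's as an amount of RNA. No gene was called present or absent. As a guide to dim signal, the 1281 olfactory, vomeronasal, taste and trace amine receptor genes, which are known from sensory tissues, had a median level of 3.60 and a 95th percentile of 5.31. Of the 13216 other genes, 9757 (73.8%) lay above that percentile.

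The arrays were alike. Array medians spanned 0.0446, and across genes any pair of litters correlated at 0.988 to 0.992. Of the variance between litters, 23.0% fell on a first principal component with litter 1 at one end (score 17.5) and litter 6 at the other (score -11.6). Litter 1 also had the widest array (SD over all probe sets 1.76) and litter 6 the narrowest (1.69).

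Keratin 10 (Krt10, probe set 10747084), a keratin of the spinous and cornified layers, was the brightest gene on these arrays. It ran from 12.22 in litter 1 through a median of 12.33 to 12.48 in litter 7, with a mean of 12.34 ± 0.09 (SD, n = 7). Its partner keratin 1 (Krt1) lay between 11.83 and 12.08, median 11.89, again lowest in litter 1 and highest in litter 7. Next in brightness to Krt10 was Stfa3, a stefin A cysteine protease inhibitor, whose lowest, median and highest values were 12.06, 12.27 and 12.40. For all 3 genes the litters lay close together, and the highest value was less than 1.5-fold the lowest.

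The 15 brightest genes outside the ribosome held, besides those 3, housekeeping genes and a few skin genes. Perp, a desmosomal protein of stratified epithelia, had a mean of 11.28 ± 0.14 (SD, n = 7), and Sparc, a matricellular protein of the dermis, one of 11.55 ± 0.08 (SD, n = 7). The nuclear proteins Ptma (12.02), Ncl (11.42), Npm1 (11.25) and Hnrnpa1 (11.62), the elongation factor Eef1a1 (11.84) and the chaperone Hspa8 (11.32) stood among them. So did the tropomyosin Tpm4 (11.65), the ubiquitin-conjugating enzyme Ube2d2 (11.32), the glutathione-cycle enzyme Ggct (11.62) and Fam25a (11.25). Ptma was also among the steadiest genes in the probe set used, with litters from 11.97 to 12.08. Its other probe sets had SDs of 0.161 and 0.0950.

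Of the brightest 100 genes, 39 encoded cytosolic ribosomal proteins, 4 chaperones, 3 suprabasal epidermal proteins (Krt10, Krt1 and Perp), 3 dermal matrix proteins (Sparc, Dcn and Postn) and 3 proteins of the actin, tubulin and filament cytoskeleton (Tpm4, Arpc2 and Vim). Translation factors and reference genes gave 2 each, glycolysis and oxidative phosphorylation 1 each (Ldha and Atp5mc3), and 42 were in none of the 40 gene lists used. The last gene inside was H19 at 10.43 and the first outside Rpl8 at 10.42, so the limit is arbitrary. Taking the brightest probe set favours genes that have several: 53 of the brightest 100 had more than 1, against 3.40% of all genes, and Rpl21 alone had 19. When the ranking was limited to genes with 1 probe set, an alternative chosen after the data were seen, 47 of the 100 were shared and 13 were ribosomal. With the mean of all probe sets of a gene, 67 were shared and 26 were ribosomal.

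Spread between litters fell as brightness rose. The median SD between litters was 0.131 over all genes, 0.112 over genes at or above the median level, 0.153 over those below it and 0.0991 over the brightest 100. For 12558 genes (86.6%) the highest litter was less than 1.5-fold the lowest, and for 151 (1.04%) it was more than 2-fold. An SD of at least 0.5 was seen in 25 genes, of which 7 lay at or above the median level and 11 were chemosensory receptors. An SD of at most 0.1 was seen in 3800 genes (26.2%). The most and least variable genes were ranked among those at or above the median level.

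**Figure D1:**
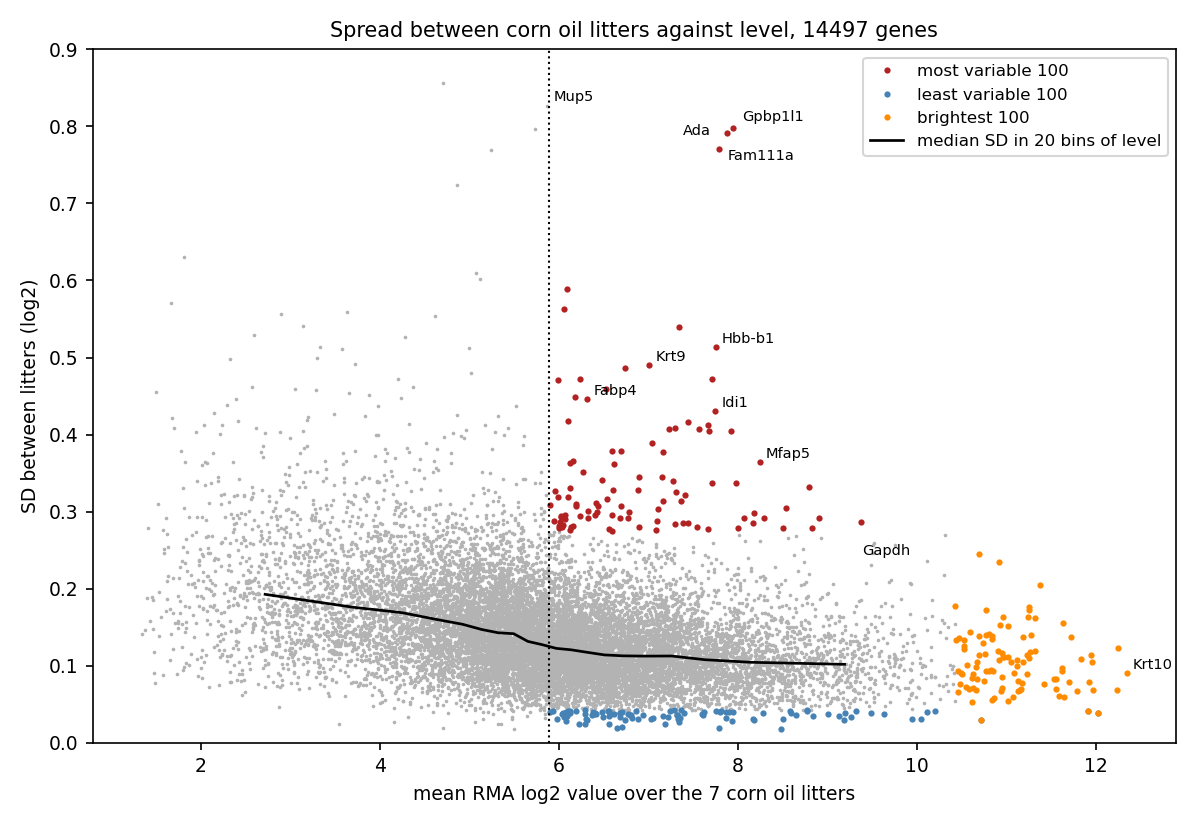
The standard deviation between the 7 corn oil litters (y axis, log2) is plotted against the mean level (x axis, RMA log2 value), 1 point per gene. The most variable 100 (red), least variable 100 (blue) and brightest 100 (orange) are coloured, the dotted line is the median level of 5.89, and the black line, the median SD in 20 bins of equal gene number, falls as the level rises.

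The 3 genes with the highest SD each varied more than 4-fold between litters, and each in its own pattern. Gpbp1l1, a member of the GC-rich promoter binding protein family, ran from 6.28 through a median of 8.11 to 8.69 (SD 0.80). Litter 6 was alone at the bottom, and the other litters lay at or above 7.84, so that without it the SD was 0.34. Ada, adenosine deaminase, ran from 6.92 through 7.92 to 9.25 (SD 0.79), a 5.05-fold range. Litter 1 was highest and litters 2 and 4 lowest, with the rest spread between them. Fam111a, a protease linked to DNA replication, ran from 6.66 through 7.72 to 8.72 (SD 0.77), with litters 7, 4 and 1 high and litters 5 and 3 low.

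Several of the next genes rested on a probe set that a second probe set of the same gene did not follow. The second probe set of Gpbp1l1 had an SD of 0.158 against 0.80 for the one used. For Ska2, a kinetochore protein, the SD was 0.59 in the probe set used and 0.171 in the other. For Sh3bp4, low in litter 6 alone at 4.85 with the others between 6.0 and 6.50, it was 0.56 and 0.115, and 0.21 in the probe set used once litter 6 was left out. Mtfr1, a regulator of mitochondrial fission, gave 0.54 and 0.225, and Elmod2 gave 0.42 and 0.0550. Of the most variable 100 genes, 15 had several probe sets, and 3 of their 17 other probe sets, all of them of Spetex2el3, had an SD at or above the limit of 0.274. The cause was not tested. Ada, Fam111a and the genes from Krt9 to Myl11 below had 1 probe set each, so they have no such check.

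Among the genes with 1 probe set, many of the most variable were high in litter 1. Krt9, a keratin best known from palm and sole epidermis, was at 8.10 in litter 1, where the other litters ran from 6.68 to 6.97, and its SD was 0.49 with litter 1 and 0.11 without it. Cyp2b12, a cytochrome P450 known from rat sebaceous glands, had lowest, median and highest values of 6.19, 6.37 and 7.50, the highest again in litter 1. Fabp4, the fatty acid carrier of adipocytes and capillary endothelium, had 5.96, 6.16 and 7.24. Idi1, an isomerase of cholesterol synthesis, had 7.29, 7.71 and 8.59. In these last 3 genes too the value of litter 1 stood clear of the rest: their SDs were 0.46, 0.45 and 0.43 with that litter and 0.17, 0.19 and 0.23 without it.

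Others did not rest on litter 1 alone. Serhl2, a serine hydrolase-like gene, ran from 7.11 through 7.68 to 8.51. Fgf7, keratinocyte growth factor of dermal fibroblasts, ran from 7.22 through 7.61 to 8.37, with litter 6 at 8.03 next to litter 1. Serpinb3, a protease inhibitor of squamous epithelium, was low in litter 2 at 5.25, while the others lay between 5.95 and 6.50, and its SD was 0.45 with that litter and 0.21 without it. Myl11, the fast skeletal muscle myosin light chain, ran from 5.39 in litter 7 through 6.11 to 6.79 in litter 4. The rest of the 20 most variable genes were Btnl8 (SD 0.49), Yae1 (0.47), Ubxn2a (0.47, or 0.29 without litter 6) and Rcor2 (0.41), in which neither end was set by litter 1, and the haemoglobin gene Hbb-b1, described with the red cell genes. Btnl8 and Rcor2 have a second probe set each, with SDs of 0.193 and 0.151.

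**Figure D2:**
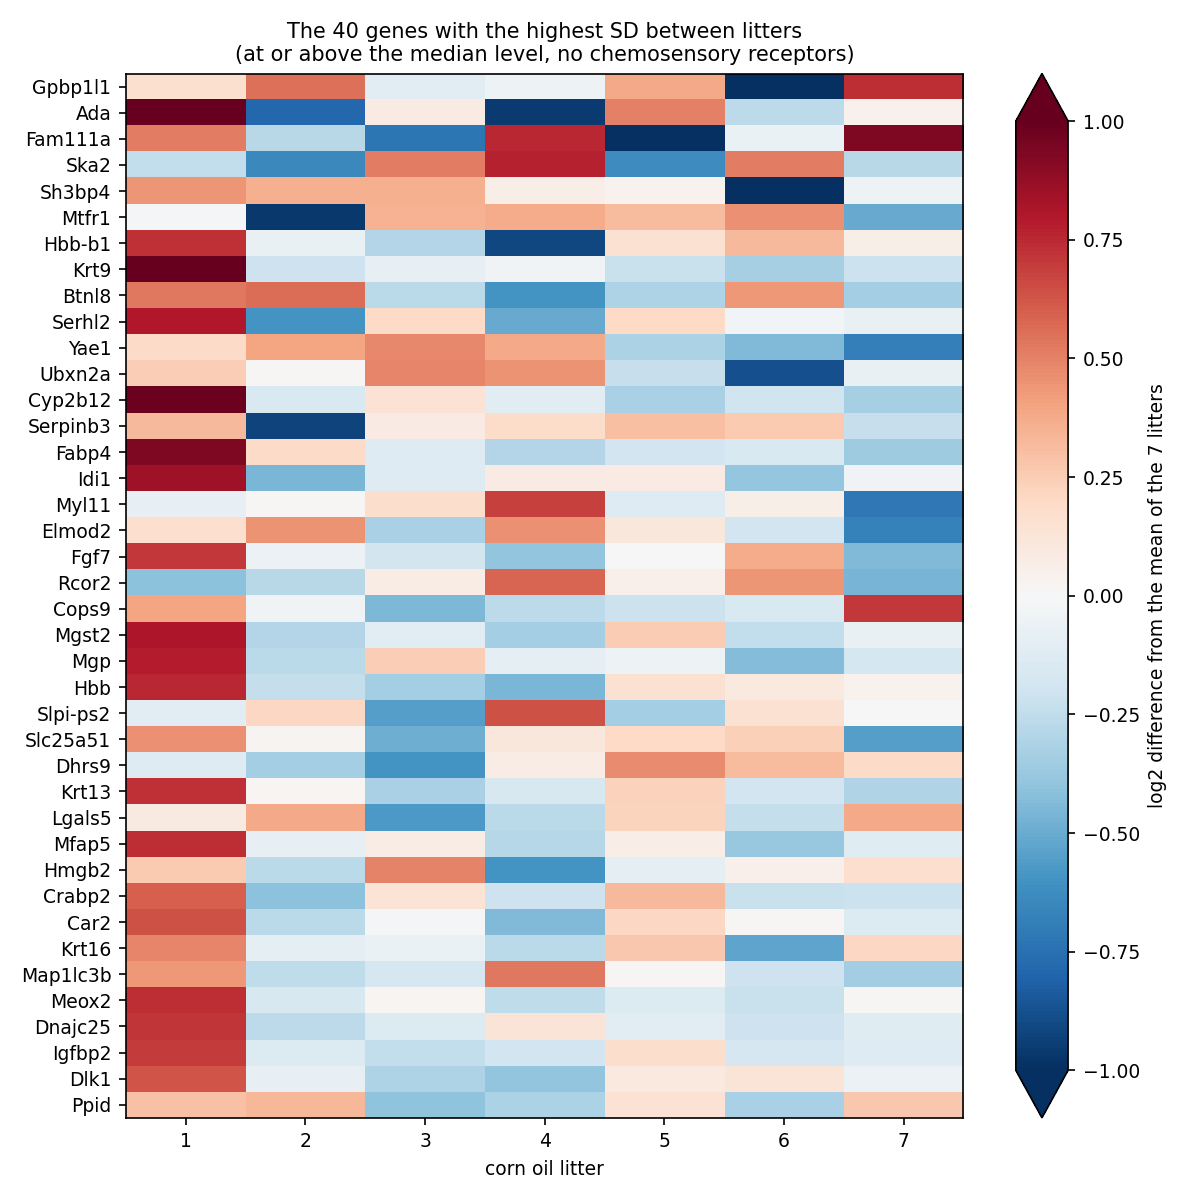
Each row is 1 of the 40 genes with the highest SD between litters (chemosensory receptors passed over), each column 1 corn oil litter, and colour gives the log2 difference from the gene's mean over the 7 litters, with the scale ending at 1 in both directions. The column of litter 1 is red for Krt9, Cyp2b12, Fabp4, Idi1 and many others, whereas Gpbp1l1 and Sh3bp4 are deep blue in litter 6 alone.

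Litter 1 held the highest value in 46 of the most variable 100 genes. Over all genes at or above the median level its share was 22.9%, and over all genes 16.7%. The 100 were ranked by SD over these same litters, so a litter with extreme values is favoured in that count. The count was 29 when spread was ranked by the median absolute deviation and 25 with no filter on dim genes. In 27 of the most variable 100 a single litter stood apart from the other 6, against 6.34% of all genes. A single litter far from the rest raises an SD, so the ranking favours such genes. In 16 of the 27 it was litter 1 that stood apart, on the high side. Genes of this kind, named here after their values were seen, included Serpinf1, a secreted anti-angiogenic serpin (9.20 in litter 1, median 8.39), Mfap5, a microfibril protein (8.98, median 8.16), Agtr2, the type 2 angiotensin receptor (8.09, median 7.28), Cthrc1, a secreted collagen-associated protein (7.99, median 7.34), and Klk6, an epidermal kallikrein (7.97, median 7.29). Mgp, Igfbp2, Dlk1 and Crabp2 were highest in litter 1 as well, at 8.46, 8.68, 8.33 and 7.21 against medians of 7.58, 7.84, 7.65 and 6.41. Without litter 1, 62 of the most variable 100 remained in that set. The cause was not tested.

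**Figure D3:**
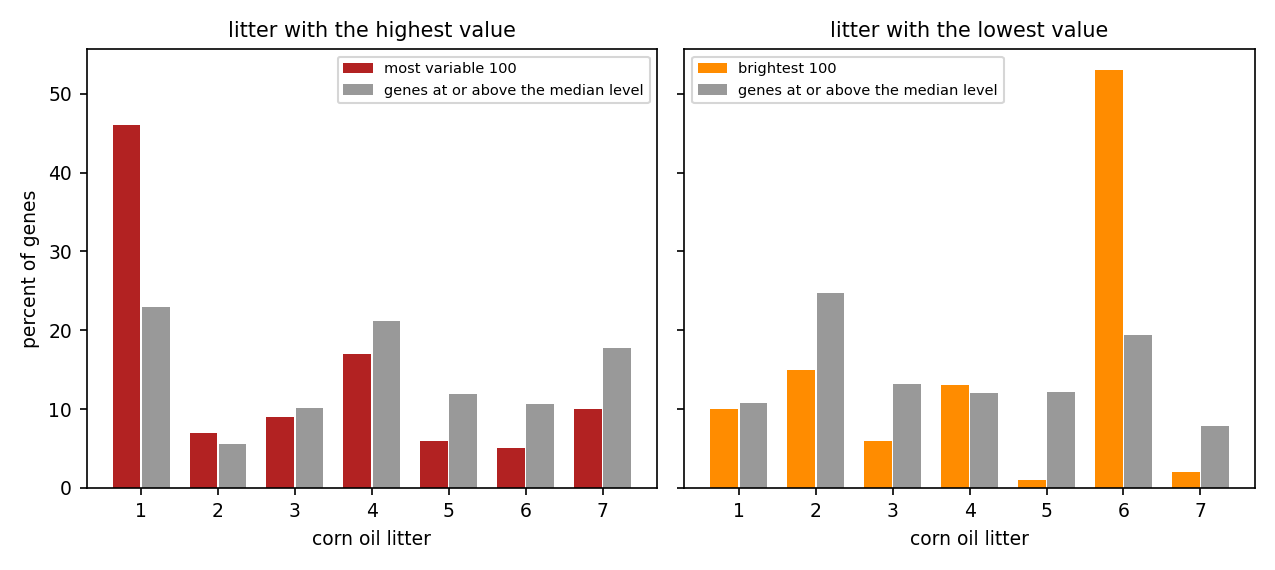
Bars give the percent of genes whose highest value (left) or lowest value (right) lay in each corn oil litter. Litter 1 was highest in 46 of the most variable 100 genes (red) against 22.9% of genes at or above the median level (grey), and litter 6 was lowest in 53 of the brightest 100 (orange) against 19.4% (grey), the latter falling to 5 once arrays were scaled to one SD. The most variable genes were ranked by SD over these same litters, which favours a litter with extreme values.

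Litter 6 held the lowest value in 53 of the brightest 100 genes, against 19.4% of genes at or above the median level. That count moved with the scale of the arrays: it was 5 after each array was centred and scaled to one SD and 12 after quantile normalisation over genes. No gene was in both the brightest and the most variable 100, and 3 genes were in both the brightest and the least variable 100, namely Ptma and the ribosomal protein genes Rpl41 and Rps6 (10.68 to 10.76).

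At the other end, Crebbp, a histone acetyltransferase and coactivator, had the lowest SD of the genes at or above the median level, 0.02, with litters from 8.45 through 8.49 to 8.51. The next were Angel2, Khdc4, Bcat2 (the mitochondrial branched-chain aminotransferase), Rab29 (a small GTPase) and Tcf3 (a basic helix-loop-helix factor), then Tmem70 (an assembly factor of ATP synthase), Bend5, Bcam (a laminin receptor of basal keratinocytes) and R3hdm2. In each of these the highest litter was at most 1.06-fold the lowest. Of the least variable 100, 8 genes had several probe sets, and the lowest SD among their other probe sets was 0.095. Membership of the least variable 100 was itself loose: leaving out 1 litter kept 50 to 65 of the 100, and the limit lay at an SD of 0.0422 on both sides, with Mpdz the last gene inside and Srrm2 the first outside.

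Genes used as references in quantitative PCR differed in how steady they were across litters. Ywhaz, a 14-3-3 adaptor protein, had the lowest SD of the 13 measured, 0.07, and ran from 10.53 through 10.65 to 10.71. That place rested on litter 6: without it the SDs were 0.053 for Ppia, 0.058 for Gusb and 0.059 for Ywhaz. Gapdh had the highest, 0.24, with litters 2 and 6 at 9.83, a median of 10.05 and litter 5 at 10.41, a 1.5-fold range. Actb ran from 9.86 through 10.16 to 10.24 (SD 0.15). Ppia (SD 0.09), B2m (0.10), Rpl13a (0.10), Gusb (0.09), Tbp (0.11), Tfrc (0.13), Sdha (0.13), Pgk1 (0.13), Rplp1 (0.14) and Hprt1 (0.16) lay between. Without litter 2 the SD was 0.081 for Tfrc and 0.080 for Pgk1. The median SD of the 13 was 0.125, and 0.105 to 0.132 with 1 litter left out. All 13 lay above the median gene, and genes at or above that level had a lower median SD of 0.112. Over all genes, dim ones included, the median SD was 0.131.

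The sequence just before the start of the genes gives a property that neither ranking used. Promoters, here 250 bases before to 50 after the start as RefSeq annotates it on the GRCr8 assembly, were found for 11945 genes. The median ratio of observed to expected CG dinucleotides was 0.658 over all genes and 0.790 over genes at or above the median level. It was 0.904 for the brightest (82 with a promoter), 0.434 for the most variable (78) and 0.823 for the least variable 100 (81). A ratio of at least 0.6 was found in 87.8% of the brightest, 41.0% of the most variable and 82.7% of the least variable, against 4508 of 6007 genes at or above the median level. The letters TATAAA, the core of the TATA box, were searched on the strand of the gene, and stood in 11 promoters (13.4%) of the brightest, 6 (7.69%) of the most variable and 1 (1.23%) of the least variable set, against 4.93% of genes at or above the median level and 7.94% of all. On either strand the counts were 13, 11 and 3. Those counts take the letters anywhere in the promoter. Between 40 and 16 bases before the start, on the strand of the gene, they stood in 4 (4.88%), 3 (3.85%) and 0 promoters. The share there was 1.63% of genes at or above the median level. The median genomic span was 5.68 kb for the brightest, 14.3 kb for the most variable and 36.8 kb for the least variable genes, against 24.7 kb for genes at or above the median level. These are descriptions of annotated sequence, with no test.

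Promoters of 4 genes are shown as examples from RefSeq GRCr8, only the 250 bases before the start, 5′ to 3′ on the strand of the gene. Krt10 and Hbb-b1 are not typical of their sets. Over the whole promoter their CG ratios were 0.533 and 0.0668, against medians of 0.904 for the brightest and 0.434 for the most variable genes. The letters TATAAA stood in only 13.4% and 7.69% of the promoters of those sets. Capitals mark each CG and the letters TATAAA. Krt10, the brightest gene (chr10:84839161-84839410, minus strand), has TATAAA beginning 29 bases before the start and 6 CG. Hbb-b1, a variable gene of red cells (chr1:167643521-167643770, minus strand), has it beginning 30 bases before the start and 0 CG. Krt9, variable through litter 1 (chr10:85627627-85627876, minus strand), has 4 CG and no TATAAA in this window. Crebbp, the gene with the lowest SD (chr10:11842090-11842339, plus strand), has 43 CG and no TATAAA.
Krt10: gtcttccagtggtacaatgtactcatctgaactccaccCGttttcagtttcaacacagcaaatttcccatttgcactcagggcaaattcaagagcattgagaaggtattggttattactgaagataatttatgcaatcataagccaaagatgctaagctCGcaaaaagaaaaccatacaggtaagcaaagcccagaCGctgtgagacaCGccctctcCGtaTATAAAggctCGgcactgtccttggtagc
Hbb-b1: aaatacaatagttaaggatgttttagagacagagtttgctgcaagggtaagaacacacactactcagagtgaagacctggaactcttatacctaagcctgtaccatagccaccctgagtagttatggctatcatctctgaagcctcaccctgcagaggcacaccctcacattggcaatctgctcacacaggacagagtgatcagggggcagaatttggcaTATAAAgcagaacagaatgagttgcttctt
Krt9: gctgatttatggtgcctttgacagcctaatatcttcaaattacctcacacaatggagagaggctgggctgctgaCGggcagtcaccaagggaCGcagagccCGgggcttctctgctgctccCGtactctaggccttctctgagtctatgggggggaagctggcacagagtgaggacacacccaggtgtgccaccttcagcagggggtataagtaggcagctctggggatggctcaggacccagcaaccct
Crebbp: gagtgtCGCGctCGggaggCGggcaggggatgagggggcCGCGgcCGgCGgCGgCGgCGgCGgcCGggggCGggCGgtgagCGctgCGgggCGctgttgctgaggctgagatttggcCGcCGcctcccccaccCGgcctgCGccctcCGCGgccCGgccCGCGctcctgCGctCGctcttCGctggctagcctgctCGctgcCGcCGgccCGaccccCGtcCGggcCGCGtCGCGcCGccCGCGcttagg

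The compartments of the skin were then read through marker lists, each by its median level, the percentile of that level among all genes, and the mean of its members in each litter. Read this way, the arrays carried the markers of the labelled tissue: epidermal and dermal markers were bright, and those of liver, brain and testis had medians below that of all genes, with 0 of 12, 2 of 12 and 1 of 10 members above it. Pancreas markers were not as dim, with a median of 5.71 and 5 of 11 members above the median gene. That median lay above those of the skeletal muscle, adipocyte, Schwann cell and red cell lists. Listed genes without a probe set of their own symbol, such as some keratins and filaggrin, were not analysed here. Every comparison of 2 lists here is one of array signal.

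**Figure D4:**
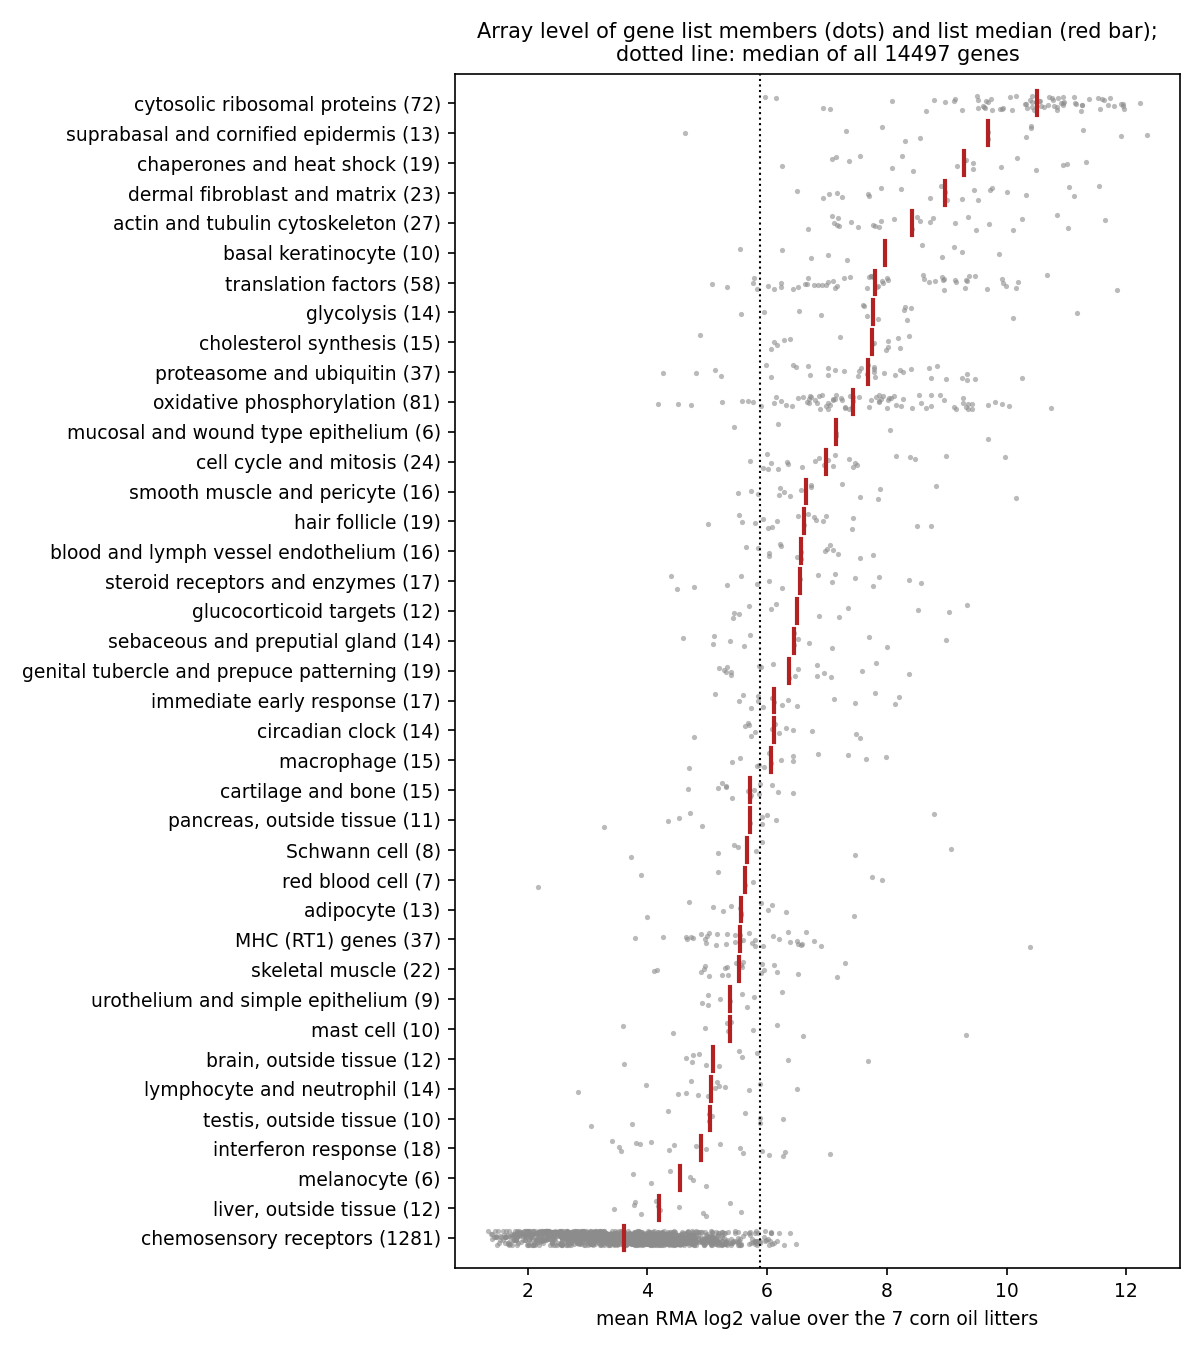
Each grey dot is 1 gene at its mean RMA log2 value over the 7 corn oil litters (x axis), sorted into gene lists (y axis, number of measured members in parentheses). Red bars are list medians, from 10.52 for ribosomal proteins and 9.70 for suprabasal epidermis down to 3.60 for chemosensory receptors, and the dotted line is the median of all genes at 5.89.

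The suprabasal and cornified epidermis list had a median level of 9.70, and 11 of its 13 measured members lay in the top decile, at 7.87 or more. After Krt10, Krt1 and Perp, its brightest members were Sbsn, the secreted keratinocyte protein suprabasin (10.28 to 10.55, median 10.44), and Tgm3, an epidermal transglutaminase (10.28 to 10.53, median 10.45). Cnfn, a cornified envelope protein, sat at the median of this list (9.51 to 9.89, median 9.69) and was also the brightest member of the mucosal list below. The widest spread in the list was that of Calml3, a keratinocyte calmodulin-like protein, from 7.98 in litter 2 through 8.27 to 8.70 in litter 1. The basal keratinocyte list had a median of 7.96, with 9 of 10 members above the median gene. It was led by Krt14 (9.72 to 10.07, median 9.89), the basal keratin, Krt15 (9.10 to 9.38, median 9.25), a keratin of basal cells and the follicle bulge, and the desmosomal plakophilin Pkp1 (8.99 to 9.24, median 9.11). Lamb3, a laminin chain of the basement membrane, was the dimmest basal marker at 5.55. The spread of the basal list was small, with a median SD of 0.0849. Its highest litter was 7 and its lowest 2 as deposited, but 6 and 4 after arrays were scaled to one SD, so the litters have no settled order here.

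Dermal fibroblast and matrix genes had a median of 8.98, and all 23 measured members lay above the median gene, 16 of them in the top decile. Sparc ran from 11.44 through 11.55 to 11.67. Dcn, the proteoglycan decorin, ran from 10.97 through 11.15 to 11.22, and Postn, periostin, from 10.86 through 11.06 to 11.20. These 3 varied little, whereas Mfap5 had the highest SD in the list, 0.36 (0.18 without litter 1), and Col5a1 the lowest, 0.04 (6.88 to 6.98). The list mean was highest in litter 1 as deposited and after quantile normalisation, and highest in litter 5 after scaling to one SD.

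Hair follicle genes lay lower, with a median of 6.61, and 15 of 19 above the median gene. Krt27 and Krt25, keratins of the inner root sheath, led them. Krt27 ran from 8.33 in litter 1 through 8.82 to 9.01 in litter 7, and Krt25 from 8.01 in litter 1 through 8.58 to 8.77 in litter 7. The highest and the lowest litters were thus the same in both genes. Lef1, a Wnt pathway factor of the hair matrix, was at 7.43 ± 0.09 (SD, n = 7), with an SD of 0.05 without litter 1. Msx2, a homeobox factor of the follicle and the genital tubercle, had the lowest SD in the list, 0.06 (0.04 without litter 2). The list mean was lowest in litter 1 at 6.42, where the other litters ran from 6.56 to 6.70, and 10 of the 19 genes had their lowest value there, against 17.2% of all genes and 10.8% of those at or above the median level. Litter 1 remained the lowest under each scaling of the arrays, with 9 or 10 genes.

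The mucosal and wound type epithelium list moved the other way. Its 6 measured members had a median SD of 0.303, the highest of the 22 marker lists with all litters. Without litter 1 it was 0.196, below the 0.241 of the red cell list. Of the 6 members, 5 were highest in litter 1, against 22.9% of genes at or above the median level and 16.7% of all. Krt13, the keratin of mucosal stratified epithelium, ran from 6.83 through 7.0 to 7.89, and Krt16, a keratin of wounded and hyperproliferative epidermis, from 6.62 through 7.08 to 7.64. In both genes litter 5 was next to litter 1. Krt17, a stress and follicle keratin, varied less, from 7.89 through 8.01 to 8.26. The list mean was 7.66 in litter 1, 7.47 in litter 5 and 7.06 to 7.20 in the other litters. Litter 1 stayed highest and litter 2 lowest under each scaling. The hair follicle mean was lowest in the litter where this mean was highest, and whether the 2 are linked was not tested.

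**Figure D5:**
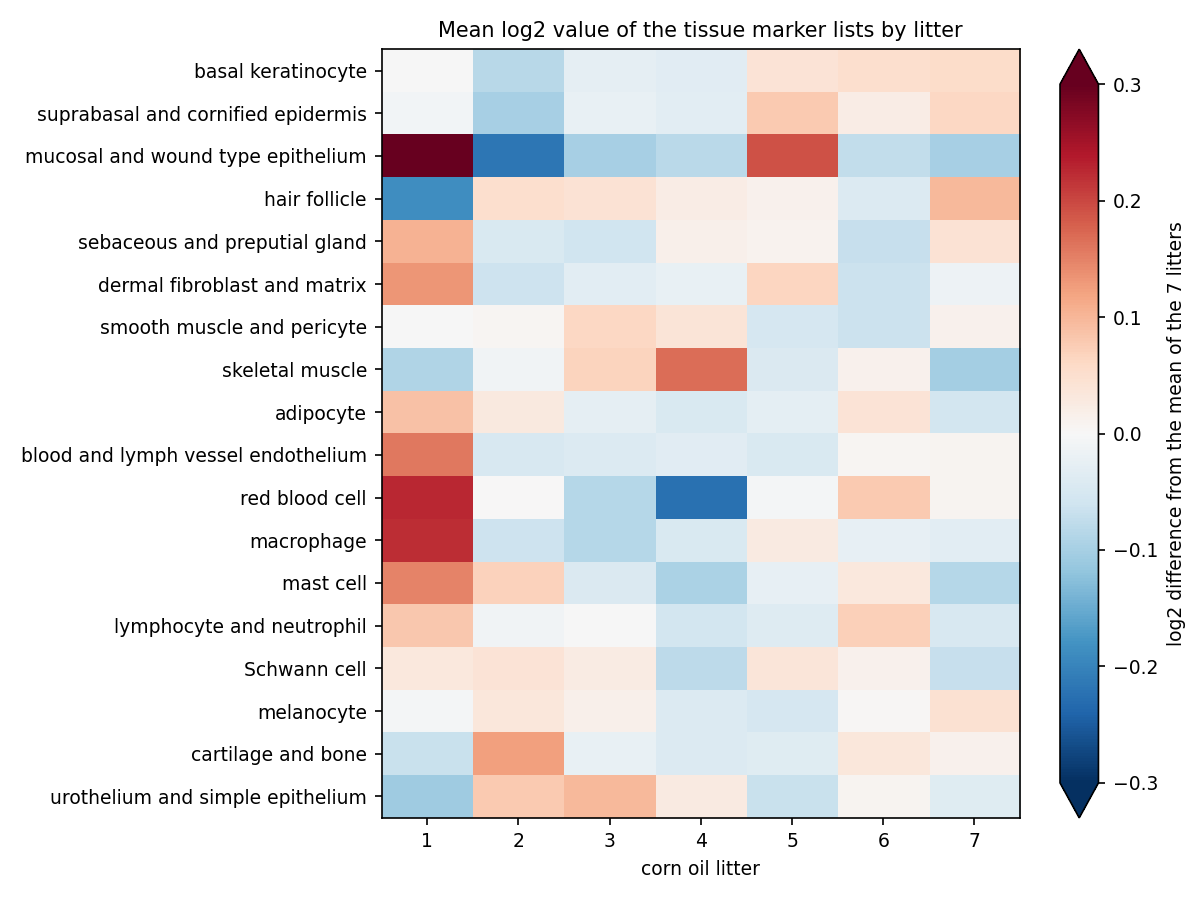
Each row is a tissue marker list and each column 1 corn oil litter, and colour is the log2 difference of the list mean from its mean over the 7 litters, with the scale ending at 0.3. Litter 1 is high for mucosal and wound type epithelium (7.66), macrophage (6.51), red blood cell (5.70) and endothelium (6.80) and low for hair follicle (6.42), and litter 4 is high for skeletal muscle (5.74).

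The means of the vessel and red cell lists were highest in litter 1. The endothelial list, with a median of 6.56, had a mean of 6.80 in litter 1 and 6.59 to 6.65 in the others. Of its 16 members 11 were highest in litter 1, against 22.9% of genes at or above the median level and 16.7% of all. Emcn, an endothelial sialomucin, ran from 7.59 through 7.70 to 8.29. Cdh5, the cadherin of endothelial junctions, ran from 7.34 through 7.57 to 7.71, and Eng, endoglin, from 7.08 through 7.17 to 7.31, both highest in litter 1. Esam, an endothelial adhesion molecule, was the steadiest member with an SD of 0.04 and was lowest in litter 1. After scaling to one SD, 8 of the 16 members were highest in litter 1, and after quantile normalisation 7. Red cell genes were few. Hbb and Hbb-b1, beta haemoglobins, ran from 7.46 through 7.96 to 8.67 and from 6.84 through 7.81 to 8.48, both lowest in litter 4 and highest in litter 1. These copies are near-identical and may share probe signal. Alas2, the haem synthesis enzyme of red cell precursors, was close to the median gene at 5.63, with an SD of 0.07. Epb42, a red cell membrane skeleton protein, ran from 5.38 through 5.76 to 6.13 and was highest in litter 7.

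The macrophage list had a median of 6.06. Its mean was 6.51 in litter 1 and 6.20 to 6.31 in the other litters. Of its 15 members 10 were highest in litter 1, against 22.9% of genes at or above the median level and 16.7% of all. Fcer1g, the Fc receptor gamma chain, ran from 7.72 through 7.98 to 8.22 with litter 2 highest. Ctss, cathepsin S, ran from 7.41 through 7.65 to 7.85, and Mrc1, the mannose receptor, from 7.14 through 7.32 to 7.78, both highest in litter 1. Cd68, a lysosomal protein of phagocytes, stood at 6.98 in litter 1 with the others between 6.21 and 6.47. Among mast cell genes, the carboxypeptidase Cpa3 gave the brightest signal of its list, at 9.04 to 9.47, median 9.34, while the list median was 5.38. The chymase Cma1 was at 7.19 in litter 1 and had a median of 6.52, and the receptor chain Ms4a2 was at 6.16. The mast cell protease Mcpt1 was dim and varied most, from 4.15 in litter 4 through 5.14 to 5.41 (SD 0.41, or 0.21 without litter 4), and Kit, the stem cell factor receptor, varied least, from 5.66 through 5.70 to 5.94. Lymphocyte and neutrophil markers had a median of 5.07, below the 95th percentile of chemosensory receptors. Their brightest members were the B cell chain Cd79b (6.49), the common leukocyte antigen Ptprc (5.88) and Cd4 (5.70). S100a8, a calgranulin of neutrophils, varied most, from 4.85 through 5.09 to 5.84 in litter 1 (SD 0.32, or 0.14 without that litter), and myeloperoxidase Mpo least (5.06 to 5.32).

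Muscle genes gave a further pattern between litters. The skeletal muscle list was dim, with a median of 5.52, but its mean was 5.74 in litter 4 and 5.47 in litter 7, and 10 of its 22 members were highest in litter 4, against 15.7% of all genes and 21.2% of those at or above the median level. Tnnt3, fast troponin T, ran from 6.93 through 7.24 to 7.85, and Ttn, the giant sarcomere protein titin, from 4.97 through 5.55 to 6.22. Both were highest in litter 4, as was Myl11. The skeletal actin Acta1 (6.93 to 7.29, median 7.23) and creatine kinase Ckm (6.30 to 6.64, median 6.52) varied less and had other litters highest. Smooth muscle and pericyte genes had a median of 6.65. Acta2, smooth muscle actin, was among their brightest and steadiest, from 10.06 through 10.16 to 10.25. Rgs5, a pericyte regulator of G protein signalling, was at 8.83 ± 0.12 (SD, n = 7), Myl9 at 7.88 ± 0.08 (SD, n = 7), and the enteric type actin Actg2 varied most, from 7.12 through 7.67 to 7.84.

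Fat and gland genes lay between. Sebaceous and preputial gland genes had a median of 6.44, led by Far1, a fatty acyl reductase (8.70 to 9.20, median 9.04), Acly, ATP citrate lyase (7.78 to 8.16, median 8.06), and Plin2, a lipid droplet coat protein (7.40 to 8.17, median 7.67, highest in litter 1). The melanocortin receptor Mc5r, known from sebaceous cells, was dim at 4.60. The adipocyte list had a median of 5.56. Cd36, a fatty acid transporter shared with endothelium and macrophages, was its brightest member at 7.45, followed by Fabp4, also its most variable, and the lipase Pnpla2 (6.09), and the adipocyte droplet protein Plin1 its steadiest (5.35 to 5.46). Schwann cell genes had a median of 5.66, with the myelin protein Pmp22, which fibroblasts also express, at 9.08. Egr2, which is also in the immediate early list below, was at 7.46 and Sox10 at 5.92. The myelin gene Mag varied most, from 4.78 through 5.27 to 5.41, and Mbp least, from 5.56 in litter 1 through 5.83 to 5.95 (SD 0.12, or 0.06 without litter 1).

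Some lists were near or below the dim range. Melanocyte genes had a median of 4.54 with none of 6 members above the median gene, led by Gpr143 (4.98), Oca2 (4.76) and Slc45a2 (4.71), in a strain that is albino. Urothelium and simple epithelium markers had a median of 5.38, with 1 of 9 above the median gene, the uroplakin Upk3a (6.25), while Upk1a (5.78), Krt18 (5.66) and Krt8 (5.22) lay below. Krt7 was the most variable of them, from 4.91 through 5.35 to 5.87. Cartilage and bone genes had a median of 5.72, with Col11a1 (6.43), Col2a1 (6.18) and Runx2 (6.07) above the median gene. Runx2, an osteoblast factor, varied most in that list (5.68 to 6.34) and Comp, a cartilage matrix protein, least (5.73 to 5.85). Liver genes, listed as outside tissue, had a median of 4.19 and none of 12 above the median gene. The brightest liver genes were those of the secreted proteins Apoa2 (5.56), Serpina1 (5.38) and Ahsg (4.99). Serpina1 varied most, from 4.95 through 5.49 to 5.71, and Apoa1 least, from 4.89 through 4.92 to 5.05 (SD 0.05, or 0.02 without litter 3). Brain genes had a median of 5.09. Behind Gria2 came the myelin gene Mog (6.36) and the synapsin Syn1 (5.83), with Nrgn varying most (5.06 to 5.84, SD 0.26, or 0.14 without litter 4) and Gad2 least (3.51 to 3.68). Testis genes had a median of 5.05, led by the protamines Prm1 (6.27) and Prm2 (5.88) and the lactate dehydrogenase Ldhc (5.87), with Akap4 varying most (3.39 to 4.01) and Tnp1 least (4.93 to 5.20, SD 0.09, or 0.06 without litter 2). A pair of outside genes was bright. Pnlip, pancreatic lipase, ran from 8.46 through 8.81 to 9.06 (SD 0.19). Gria2, a glutamate receptor subunit of neurons, ran from 7.54 through 7.70 to 7.82 (SD 0.11). The median SD of genes at or above the median level was 0.112, so the litters were not close together for Pnlip. After Pnlip the brightest pancreas genes were chymotrypsinogen Ctrb1 (6.15) and the insulin gene Ins2, which varied most (5.64 to 6.46). The other insulin gene, Ins1, varied least (5.73 to 6.06), and these closely related genes may share signal.

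Genes of housekeeping pathways were counted in the same way. All 72 cytosolic ribosomal protein genes lay above the median gene and 68 in the top decile, with a median of 10.52. Rpl5 (12.23), Rpl21 (11.96) and Rpl31 (11.95) led them, Rps6 was the steadiest and Rpl38 the most variable (9.98 to 10.62, median 10.23). As deposited their mean and 43 of the 72 genes were highest in litter 1, against 22.9% of genes at or above the median level. Their mean was highest there after quantile normalisation too (37 of the 72 genes), but in litter 5 after scaling to one SD. Under that scaling 19 of the 72 genes were highest and 14 lowest in litter 1. Chaperones had a median of 9.29, with Hsp90b1 of the endoplasmic reticulum (10.70 to 11.15, median 11.06) and the cytosolic Hsp90ab1 (mean 10.93, SD 0.07) behind Hspa8. The small heat shock protein Hspb1 varied most, from 7.02 through 7.40 to 7.73. Oxidative phosphorylation genes had a median of 7.43 over 81 members. Atp5mc3, a ring subunit of ATP synthase, was their brightest at 10.74, followed by the cytochrome oxidase subunits Cox5a (10.04, SD 0.03) and Cox7b (9.93, SD 0.21). Ndufa10, a complex I subunit, varied most in that list (SD 0.31, or 0.13 without litter 6). It ran from 6.05 in litter 6 through 6.75 to 6.96. Ndufs6-ps1 varied least in the probe set used (6.69 to 6.78), but its second probe set had an SD of 0.434. The second probe set of Cox5a had an SD of 0.251. Cholesterol synthesis genes had a median of 7.75, with Sqle (8.36), Fdft1 (8.23) and Nsdhl (8.18) brightest, Idi1 most variable and mevalonate kinase Mvk least (6.32 to 6.42). Cell cycle genes had a median of 6.98, with 23 of 24 above the median gene, led by Stmn1 (9.97), Top2a (8.99) and Pcna (8.47). Ube2c, an ubiquitin-conjugating enzyme of mitosis, varied most among them, from 5.62 to 6.42, and thymidylate synthase Tyms least, from 7.08 to 7.24.

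The 17 measured genes of steroid action had a median level of 6.54 and a median SD of 0.146, and the 19 of genital tubercle and prepuce patterning one of 6.36 and an SD of 0.111. Nr3c1, the glucocorticoid receptor, ran from 7.67 through 7.89 to 8.0. Esr1, oestrogen receptor alpha, lay near the median gene, from 6.12 through 6.20 to 6.52, and Pgr, the progesterone receptor, was dim at 4.39 with the highest SD of the list, 0.26. Brighter members were the dehydrogenases Hsd17b10 (8.57, highest in litter 1 at 8.89) and Hsd17b4 (8.37), and steroid sulphatase Sts was the steadiest (7.0 to 7.21). Of the patterning genes, Fgfr2, a receptor of fibroblast growth factors needed for urethra and prepuce, ran from 8.30 through 8.36 to 8.47. Wnt5a (7.81) and Isl1 (7.59), genes of genital outgrowth, followed, while Hoxd13 (5.31) and Hoxa11 (5.40) were dim. The mean of the 19 patterning genes had an SD of 0.0179 between litters, the smallest of all 40 lists as deposited. That rank moved with the scale of the arrays. After quantile normalisation the patterning mean ran from 6.31 to 6.38, and the mean of translation factors over a narrower range, from 7.92 to 7.94.

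Response genes that can move with handling or time of day were also measured. Immediate early genes had a median of 6.12, led by Klf4 (8.20), Egr1 (8.02 to 8.25, median 8.14) and Zfp36 (7.79), with Ier2 varying most (SD 0.26, highest in litter 4 at 6.29) and Klf6 least (5.78 to 5.89). Clock genes had a median of 6.11, with Bhlhe40 (7.55), Clock (7.49) and the output gene Dbp (6.58 to 6.89, median 6.76), Bhlhe41 varying most (4.33 to 5.07) and Npas2 least (6.36 to 6.57, SD 0.07, or 0.04 without litter 3). Neither group had a member among the most variable 100, which were drawn from the 7249 genes at or above the median level. Only 11 of 17 immediate early and 8 of 14 clock genes reached that level, so this lack says little. Interferon response genes were dim, with a median of 4.89, led by Ifi27 (7.05), the RNA sensor Ifih1 (6.30) and the virus tether Bst2 (6.26). Ifi44 varied most among them (5.07 to 6.03) and Mx2 least (4.72 to 4.93). Of the 37 genes of the major histocompatibility complex list, B2m (10.40), Cd74 (6.90) and RT1-DMa (6.78) were brightest and RT1-S2 varied most, from 4.56 through 5.21 to 5.66. RT1-CE7 varied least (6.41 to 6.60). Near copies in this family may share signal.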

How the data were processed

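The 7 corn oil arrays were labelled, per the labels' protocols, from 50 ng of RNeasy-extracted RNA with NuGEN Applause amplification and Encore biotin chemistry. The authors deposited log2 values for 28826 probe sets, made with RMA per the submitters' processing notes. That method subtracts background, makes the arrays' distributions alike and combines the probes of a set. Differences in RNA are thus shrunken in dim probe sets, and shifts common to most genes are lost. The SD between litters was still wider below the median level (median 0.153) than at or above it (0.112). No source used here gives its version, summary level or genome build, and the log base was taken from the range of values.

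GEO's platform annotation gave 1 symbol to 15209 probe sets, several to 306 and none to 13311. Symbols were updated through a RefSeq table of GRCr8, which matched 14471 of 14497 genes. The brightest probe set was taken for the 493 genes with several. Means, standard deviations (SD, n = 7) and ranks were computed in Python 3.11.15 with numpy 2.4.6 and pandas 2.3.3, and tested on simulated data. With 1 group there is no test and no p-value, and the number of arrays limits the precision.

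Named were the 15 brightest genes outside ribosomal proteins, the 3 brightest and the most and least variable members of each list described by its median (chemosensory receptors passed over), the 20 most and 10 least variable genes, and the reference genes. Which lists were described, and other genes named, was chosen after values were seen. Members and lists were chosen with earlier results of these data known. Promoters came from RefSeq GRCr8, and protein lengths, which were planned, were not analysed here. The alternatives were other scalings, filters, spread measures and probe set choices (the mean of all probe sets of a gene among them), and each litter left out in turn.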

Additional observations from a re-analysis of the deposited data

Results flagged for a closer look

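In 28 of the 216 named genes and 2 of the 40 list means, 1 litter lay so far from the other 6 that its gap to the nearest, divided by the whole range, passed Dixon's 95% critical value for 7 samples. Chance alone gives this for about 1 in 20 genes, and it was seen in 919 of all genes (6.34%). The named genes were partly picked for their spread, so their count is not set against that share.

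Litter 1 was the high one in 17 of the genes. Some of the 17 were named after their high values in litter 1 were seen, so the count is partly set by the naming. Of the 919 among all genes, litter 1 was the high one in 130. Among matrix and secreted factors the 17 were Serpinf1 (9.20), Mfap5 (8.98), Cthrc1 (7.99) and Angptl1 (7.33), with the angiotensin receptor Agtr2 at 8.09. Among epithelial genes they were Krt9 (8.10) and the kallikrein Klk6 (7.97). Lipid genes were Idi1 (8.59), Plin2 (8.17), Cyp2b12 (7.50) and Fabp4 (7.24), with the dehydrogenase Hsd17b10 at 8.89. Vessel and immune genes were Emcn (8.29), Cma1 (7.19), Cd68 (6.98), the complement chain C1qa (6.04) and the calgranulin S100a8 (5.84). The list means of endothelium (6.80) and macrophages (6.51) were also high in litter 1 alone. The skeletal muscle calcium pump Atp2a1 (5.21) and the myelin gene Mbp (5.56) were low in litter 1.

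In litter 6 Hsp90b1 (10.70), Gpbp1l1 (6.28), the complex I gene Ndufa10 (6.05) and Sh3bp4 (4.85) were low. The liver gene Apoa1 (5.05) was high in litter 3. The other low values were Angel2 in litter 2 (6.60), Bcam in litter 3 (7.28), the protamine Prm1 in litter 4 (6.04) and Cpa3 in litter 7 (9.04). For Angel2 and Bcam, which are among the least variable genes, the litter apart still lay within 1.06-fold of the highest.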

How the results depend on the processing

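Of the brightest 100 genes, 98 to 100 were kept when 1 litter was left out, and the median SD lay between 0.125 and 0.131. The variable sets were looser. The most variable 100 shared 62 to 89 genes with the set without 1 litter (62 without litter 1), 25 with the set ranked over all genes, 48 with the set from the brightest 25% of genes and 41 with the set ranked by the median absolute deviation. The least variable 100 shared 50 to 65 genes without 1 litter, 50 after scaling to one SD, 34 after quantile normalisation, 56 in the brightest 25% of genes and 16 by the median absolute deviation. Without litters 1 and 6 together, added after the data were seen, the most variable shared 53 and the least variable 36. Litter 1 was highest in 46 to 57 of the most variable 100 when another litter was left out, but in 25 with no filter on dim genes and 29 by the median absolute deviation. Litter 6 was lowest in 5 of the brightest 100 after scaling to one SD and 12 after quantile normalisation. The median absolute deviation was at most 0.1 in 6218 genes. Ribosomal genes numbered 19 in the brightest 50, and 13 in the brightest 100 of genes with 1 probe set, which shared 47 with those described. Both restrictions change which genes can enter. The cause of the other moves was not tested. No paired analysis was possible because 1 group was described, with no test. Arrays give no count, and dim levels cannot be told from background.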

Other observations

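A pair of genes just below the median level, named after their values were seen, had high SDs and fell outside the most variable set for their level. Mup5, a major urinary protein gene of a family that carries pheromones, ran from 4.74 in litter 2 through a median of 6.01 to 7.13 in litter 1 (SD 0.83), a 5.23-fold range with the litters spread evenly between. Dppa3, an early germ line gene with 4 probe sets here, ran from 4.43 in litter 1 through 5.59 to 6.77 in litter 5 (SD 0.80). The family members of Mup5 are near-identical and may share its probe signal.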
